A study of Homo sapiens with 3 samples.

Results

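Sites at which 1 stretch of trimethylated histone H3 lysine 4 (H3K4me3) touched the ends of neighbouring genes were examined in ALL-SIL, a leukaemia cell line of human T-lineage lymphoblasts (T-ALL, for T-cell acute lymphoblastic leukaemia). A shared peak was an H3K4me3 peak below 4 kb that overlapped, by at least 1 bp, the 1 kb windows around an end of at least 2 different protein-coding genes. Either end of a gene counted, so a window could lie around its start or around its 3′ end. Of 11100 H3K4me3 peaks, 11084 lay on the main chromosomes, and 1778 of them were shared peaks. They are described beside the 6351 peaks below 4 kb that overlapped the windows of exactly 1 protein-coding gene, called single-gene peaks here. Shared peaks made up 21.9% of these 8129 peaks (95% Clopper-Pearson interval 21.0 to 22.8%, counting error only). The data came from untreated ALL-SIL cells grown in RPMI medium with serum, with 1 chromatin immunoprecipitation (ChIP-seq) library for H3K4me3, 1 for monomethylated lysine 4 (H3K4me1) and 1 of input DNA. All 3 libraries stand for 1 cell line, so the values describe these libraries and no test between conditions was possible. After the authors' duplicate filter, the depth was 30823016 tags for H3K4me3, 34813455 for H3K4me1 and 18859011 for input.

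H3K4me3 is placed by the SET1 and MLL complexes on nucleosomes around active or poised gene starts, most of all at CpG islands. H3K4me1 is known from enhancers and from the outer borders of active promoters, where trimethylation fades. Many human genes start close to a neighbour that is read in the opposite direction, and the stretch between such head-to-head starts is called a bidirectional promoter. Genes of DNA repair, of mitochondria and of other functions needed in most cells are known to be frequent in such pairs. As a check of the label, 8 of 12 T-cell markers had H3K4me3 at a gene end and 11 of 12 had it at an end or inside the gene. At a gene end H3K4me3 was found for 1 of 6 B-cell markers (CD79B), 0 of 6 myeloid markers and 0 of 6 erythroid markers. At an end or inside the gene it was found for 2, 0 and 1 of 6, in that order. Of all protein-coding genes, 48.0% had an H3K4me3 peak below 4 kb at an end. H3K4me1 separated the lineages less, with a peak at an end for 11 of 12 T-cell and 4 of 6 B-cell markers. For myeloid and erythroid markers it was 1 of 6 and 2 of 6.

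The bases between the starts of 7 head-to-head pairs that share a peak are given as examples. The pairs come from the gene groups described further on. They were picked among pairs with starts 100 to 250 bp apart, so their short stretches follow from that choice. Sequences are from RefSeq on GRCh38.p14, on the plus strand from 5′ to 3′. Each begins beside the start of the first gene, which is read leftward, and ends beside the start of the other, which is read rightward. Capitals mark matches, on either strand, to CCAAT (the letters read by NF-Y), to GGGCGG (SP1), to CCGGAAG (ETS factors such as GABPA), to GCATGCGC (NRF1) and to TATAAA (the TATA box).
TK1 and AFMID, chr17:78187205-78187361: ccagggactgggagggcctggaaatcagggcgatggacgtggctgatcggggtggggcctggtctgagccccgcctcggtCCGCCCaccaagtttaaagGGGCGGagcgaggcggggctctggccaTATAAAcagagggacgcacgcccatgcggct
KARS1 and TERF2IP, chr16:75647666-75647772: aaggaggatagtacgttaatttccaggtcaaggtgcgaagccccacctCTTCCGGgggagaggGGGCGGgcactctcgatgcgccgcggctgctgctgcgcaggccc
RARS2 and ORC3, chr6:87589988-87590134: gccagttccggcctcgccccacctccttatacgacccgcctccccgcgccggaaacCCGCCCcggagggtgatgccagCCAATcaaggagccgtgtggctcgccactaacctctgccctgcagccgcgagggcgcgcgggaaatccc
PSMA2 and MRPL32, chr7:42932175-42932375: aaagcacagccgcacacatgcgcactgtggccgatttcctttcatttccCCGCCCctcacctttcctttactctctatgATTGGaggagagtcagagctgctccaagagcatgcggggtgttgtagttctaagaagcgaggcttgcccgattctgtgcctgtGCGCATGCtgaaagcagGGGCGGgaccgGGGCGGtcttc
SARS2 and MRPS12, chr19:38930764-38930943: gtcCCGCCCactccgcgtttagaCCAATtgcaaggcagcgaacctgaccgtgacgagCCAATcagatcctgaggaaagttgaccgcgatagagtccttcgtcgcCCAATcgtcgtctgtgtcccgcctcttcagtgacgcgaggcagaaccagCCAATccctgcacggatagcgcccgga
ZNF490 and ZNF791, chr19:12610814-12610919: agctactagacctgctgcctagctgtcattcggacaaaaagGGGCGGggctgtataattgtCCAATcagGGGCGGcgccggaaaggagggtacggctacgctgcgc
PSME4 and ACYP2, chr2:53970994-53971112: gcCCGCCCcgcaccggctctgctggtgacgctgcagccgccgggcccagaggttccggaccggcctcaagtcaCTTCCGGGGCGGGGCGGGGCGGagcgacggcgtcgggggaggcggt
The 7 stretches held 8 to 18 CpG dinucleotides and were 57.2 to 79.0% G or C. GGGCGG occurred in all 7, with 1 match in each of KARS1/TERF2IP, RARS2/ORC3 and SARS2/MRPS12 and 4 matches between PSME4 and ACYP2. SARS2/MRPS12 held 4 CCAAT matches. CCGGAAG was found in KARS1/TERF2IP and in PSME4/ACYP2, GCATGCGC in PSMA2/MRPL32 alone, and TATAAA in TK1/AFMID alone. The same letters were counted in a subset of 243 head-to-head pairs whose starts lay 100 to 250 bp apart. The subset was limited to pairs with a RefSeq sequence window at the start, so it does not stand for every such pair. In these 243 the stretch between the starts had a median of 67.3% G or C and 16 CpG. GGGCGG was present in 163 of the 243, CCAAT in 102, CCGGAAG in 61 and TATAAA in 4. Such a match describes letters only and is no evidence of binding.

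Where orientation was known, shared peaks mostly joined the starts of divergent genes. A total of 1673 shared peaks touched 2 genes, 101 touched 3 and 4 touched more, with 1 peak in the protocadherin gamma cluster touching the ends of 22 genes. The 1778 peaks involved 3531 genes, which is 17.6% of the 20033 protein-coding genes, while 48.0% of those genes had an H3K4me3 peak below 4 kb at an end. Gene orientation could be read for every gene of 1343 shared peaks. At least 2 gene starts lay at 1035 of these (77.1%, 74.7 to 79.3%), 1 start at 305 (22.7%) and none at 3 (0.223%). The 3 without a start were DUOX1/SHF and PRR7/DBN1, where 3′ ends met, and PROB1/SPATA24, named here because their number is small. Among the 1269 oriented peaks with 2 genes, 868 were head-to-head (68.4%, 65.8 to 71.0%), which is 48.8% of all 1778 shared peaks. In 258 (20.3%) the 3′ end of one gene and the start of the next lay on the same strand. Both ends of a short gene were touched in 66 (5.20%), starts on the same strand in 55 (4.33%), and a start with a 3′ end on opposite strands in 19 (1.5%).

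Neighbouring starts shared a peak far more often than neighbouring 3′ ends outside the protocadherin gamma cluster. The reference held 1097 head-to-head neighbours with starts at most 1 kb apart, overlapping genes included, and 938 of them (85.5%, 83.3 to 87.5%) had a shared peak below 4 kb. Another 3.19% had a longer shared peak, and 11.0% had none. Of 638 tail-to-tail neighbours, whose 3′ ends lay equally close, 27 (4.23%, 2.81 to 6.10%) had a shared peak and 603 (94.5%) had no peak. For 3′ ends on the same strand it was 196 of 395 pairs (49.6%), of which 190 lay within the protocadherin gamma cluster, where the listed genes end together at 1 peak, and among the other 205 pairs it was 6 (2.93%, 1.08 to 6.26%), a split made after the values were seen. Neighbours with starts on the same strand had a shared peak in 109 of 151 cases (72.2%). For a 3′ end followed by a start on the same strand it was 246 of 475 (51.8%), and for a start and a 3′ end on opposite strands 42 of 92 (45.7%). Among gene starts with no other protein-coding end close by, 5567 of 12705 (43.8%) had H3K4me3, against 345 of 13499 (2.56%) of such 3′ ends. With windows of 1 kb, a peak at one of 2 ends this close nearly always reaches the window of the other.

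**Figure D1:**
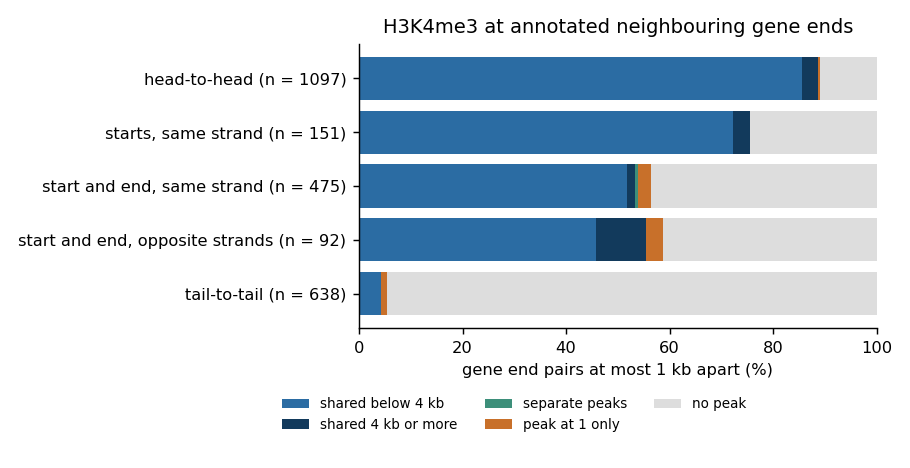
Annotated pairs of gene ends at most 1 kb apart, by orientation. The bars give the percentage of pairs with a shared H3K4me3 peak below 4 kb, a longer shared peak, separate peaks, a peak at 1 gene end only, or no peak, and the shared fraction falls from 85.5% of head-to-head pairs to 4.23% of tail-to-tail pairs. The 395 pairs of 3′ ends on the same strand, of which 49.6% shared a peak below 4 kb, are not drawn.

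In head-to-head pairs the peak usually covered both starts. The distance between the starts, negative where the genes overlap at their 5′ ends, had a median of 118.5 bp (quartiles −50.25 and 239 bp). The genes overlapped in 229 of the 868 pairs (26.4%), and in the other 639 the median distance was 177 bp. Both starts lay inside the peak in 771 pairs (88.8%, 86.5 to 90.8%), 1 start in 76 (8.76%) and none in 21 (2.42%). The closest starts belonged to TRPT1, a tRNA phosphotransferase, and NUDT22, at 1 bp, and to TSGA10 and LIPT1, also at 1 bp. The starts of the chromatin remodeller subunit PBRM1 and of GNL3, a nucleolar GTP-binding protein, lay 7 bp apart. The largest distances at 1 peak were 1766 bp for RNF208/CYSRT1 and 1676 bp for NCOR1/PIGL, the former gene of the latter pair encoding a nuclear receptor corepressor. FKBP3/FANCM, with a gene of the Fanconi anaemia DNA repair pathway, stood at 1449 bp, after PFKFB1/APEX2 (1574 bp) and MAP3K11/PCNX3 (1555 bp).

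Head-to-head peaks extended into both genes, with a lower median reach into each than that of single-gene peaks into one. In the 583 pairs whose genes did not overlap and whose starts were both covered, the peak reached a median of 830.5 bp (quartiles 628.25 and 1068.75 bp) into a gene. The median was 837 bp into the plus-strand gene and 820 bp into the minus-strand gene. Within a pair the longer arm had a median of 1010 bp and the shorter 665 bp. The lengths of the arms of a pair did not vary together across pairs (Pearson's r −0.0294, Spearman's rho 0.0180, n = 583, given as a description). Single-gene peaks that covered an oriented start, 4395 of 5110, reached 977 bp downstream (quartiles 740 and 1354.5 bp) and 450 bp upstream (236 and 682 bp). Where a 3′ end preceded a start on the same strand, the peak covered the start in 236 of 258 cases (91.5%) and the 3′ end in 80 (31.0%). Such peaks reached 875 bp downstream and 481.5 bp upstream of the start, while the preceding gene ended a median of 590.5 bp before it. They covered the start without the 3′ end in 159 cases and the 3′ end without the start in 3.

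**Figure D2:**
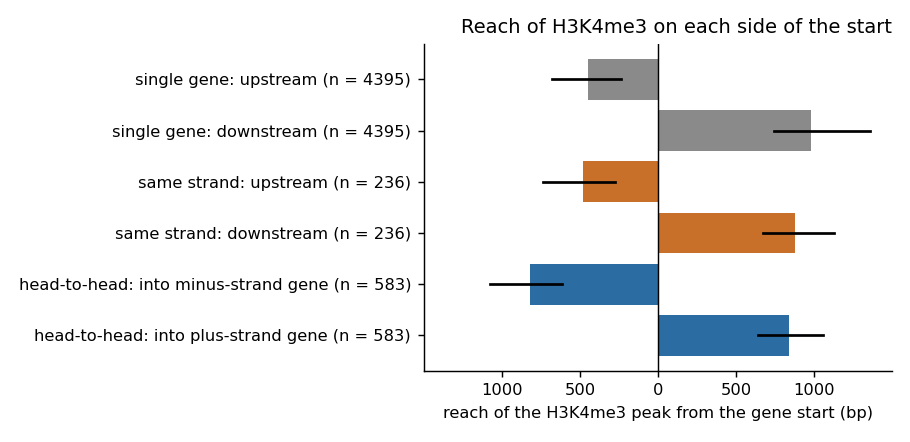
Reach of H3K4me3 peaks from a covered gene start, in bp, into the gene and away from it, for single-gene peaks, peaks at a 3′ end and a start on the same strand, and head-to-head peaks. The bars are medians and the black lines run from the lower to the upper quartile, with 837 and 820 bp into the head-to-head genes against 977 bp downstream and 450 bp upstream of a single start.

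Shared peaks were longer than single-gene peaks, with a median of 1712.5 bp (quartiles 1297.25 and 2203 bp, range 187 to 3953 bp) against 1410 bp (1024 and 1905 bp). A longer peak has more chance to touch a second window, so part of this difference follows from how shared peaks were chosen. Head-to-head peaks had a median of 1870.5 bp (1469 and 2308 bp), while peaks at a 3′ end and a start on the same strand had 1364 bp (1080.25 and 1723.25 bp). Length rose with the distance between non-overlapping starts, from a median of 1670.5 bp at 0 to 100 bp (154 pairs) through 1943 bp at 200 to 300 bp (134 pairs) to 2639 bp at 1000 to 2000 bp (17 pairs). Across the 639 pairs with non-overlapping starts this relation was loose (r 0.252, rho 0.235, given as a description). The longest was 3953 bp at DDX5/CEP95 on chr17:64504498-64508450, where DDX5 encodes an RNA helicase and the genes overlap by 104 bp. It was followed by RAB37/NHERF1 at 3943 bp, H2BC4/H2AC6 at 3935 bp and NOA1/POLR2B, with a large RNA polymerase II subunit, at 3926 bp and with starts 1290 bp apart. ALG5/EXOSC8, with a glycosylation enzyme and an exosome subunit, had 3897 bp, starts 1419 bp apart and no H3K4me1 within 2 kb. The shortest were FAM186B/PRPF40B at 187 bp, BOLA2B/SLX1A at 203 bp, ELOVL4/LOC124901350 at 218 bp and TRAPPC10/PWP2 at 219 bp. BOLA2B and SLX1A lie in a duplicated region with near-identical copies, so the origin of their reads is uncertain. Just above the length limit lay ANG/RNASE4 at 4011 bp, NPAT/ATM at 4015 bp and a peak at ERAP1 and LNPEP at 4018 bp.

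**Figure D3:**
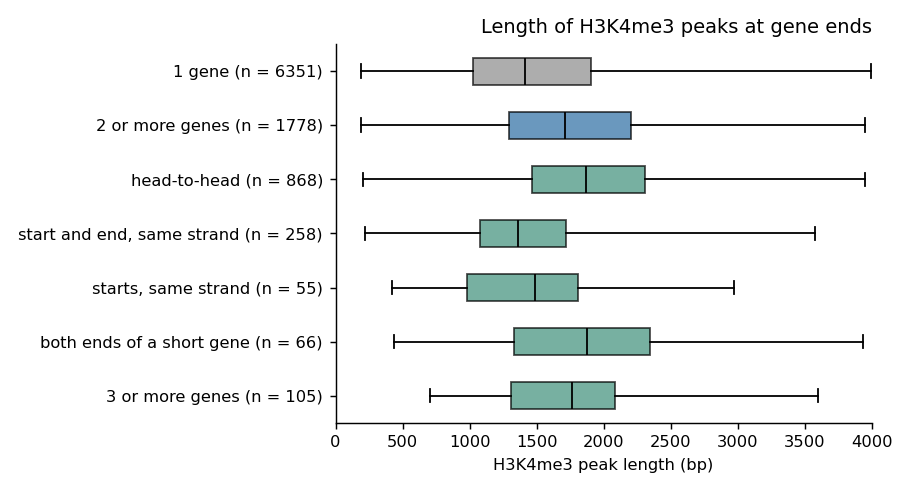
Length of H3K4me3 peaks in bp for shared peaks, their orientation classes and single-gene peaks. The boxes run from the lower to the upper quartile with a line at the median, and the whiskers to the shortest and longest peak, with medians of 1870.5 bp for head-to-head peaks and 1410 bp for single-gene peaks.

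Signal height did not separate shared peaks from the others. The pileup, which is the authors' mean fragment coverage over a peak, had a median of 13.605 (quartiles 10.47 and 17.42) in shared peaks and 13.49 (10.04 and 17.63) in single-gene peaks. Their fold over the local background, also the authors' value, had medians of 4.63 and 4.53. Head-to-head peaks had a median pileup of 13.41 and same-strand peaks with a 3′ end and a start 13.4. Pileup did not vary with length among shared peaks (r 0.0323, n = 1778, given as a description). The highest pileups stood mostly in peaks shorter than the median, with SFTPC/BMP1 (31.84 over 1921 bp) as the exception among the 10 highest. DPP3/BBS1 on chr11:66510463-66511214 had 39.16 over 752 bp, where the gene of dipeptidyl peptidase 3 ends ahead of BBS1, a gene of the BBSome that sorts cargo to cilia. It was followed by MAN2B1/WDR83/WDR83OS with 38.12 over 778 bp and ABHD8/MRPL34 with 36.23 over 456 bp. HOXC6/HOXC5/HOXC4, patterning genes of the HOXC cluster, had 34.25 over 1141 bp. RBM23/PRMT5, with an arginine methyltransferase, had 31.5 over 1417 bp.

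H3K4me1 lay on both sides of shared peaks more often than of single-gene peaks. Counting any H3K4me1 peak base within 2 kb beyond an edge, both sides held the mark at 1217 shared peaks (68.4%, 66.2 to 70.6%) and at 3453 single-gene peaks (54.4%, 53.1 to 55.6%), against 58.8% of all H3K4me3 peaks below 4 kb. It was present on 1 side at 24.1% of shared and 33.9% of single-gene peaks, and neither side at 7.48% (6.30 to 8.80%) and 11.7% (10.9 to 12.5%). The median H3K4me1 coverage over both flanks was 1593 bp for shared and 1260 bp for single-gene peaks. The 2 marks overlapped at 895 shared peaks (50.3%, 48.0 to 52.7%), at 42.6% of single-gene peaks (41.3 to 43.8%) and at 46.3% of all H3K4me3 peaks below 4 kb. The overlap was shallow, with a median of 11.8% of the shared peak covered where the marks met, and H3K4me1 included the midpoint of 148 shared peaks (8.32%). The difference between shared and single-gene peaks shrank to 0.169 points (1.25% and 1.08%) when the peaks of both marks were limited to a −log10 q of at least 10, a setting in which 798 shared peaks were left.

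The difference was widest among short peaks. Below 1 kb, 64.4% of 222 shared peaks (57.7 to 70.7%) and 43.5% of 1504 single-gene peaks (41.0 to 46.0%) had H3K4me1 on both sides. From 1 to 2 kb these shares were 66.7% (63.5 to 69.7%) and 53.9% (52.2 to 55.5%). From 2 to 3 kb they were 72.4% (68.3 to 76.3%) and 67.1% (64.2 to 69.9%), and from 3 to 4 kb 73.3% and 68.7%, with overlapping intervals in both classes. Single-gene peaks weighted to the length mix of shared peaks reached 57.3%. Head-to-head peaks stood lower than the shared peaks as a whole, with 49.1% below 1 kb (35.6 to 62.7%, n = 57) and 62.1% from 1 to 2 kb (57.4 to 66.6%, n = 443). The interval below 1 kb includes the 43.5% of single-gene peaks. From 2 to 3 kb head-to-head peaks had 66.8% (61.1 to 72.1%, n = 301) and from 3 to 4 kb 67.2% (54.6 to 78.2%, n = 67). In these 2 classes they were no higher than single-gene peaks, at 67.1% and 68.7%. The end of a long noncoding RNA gene was touched by 9.11% of shared and 26.1% of single-gene peaks. Without these, both sides held H3K4me1 at 67.5% and 53.2%.

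**Figure D4:**
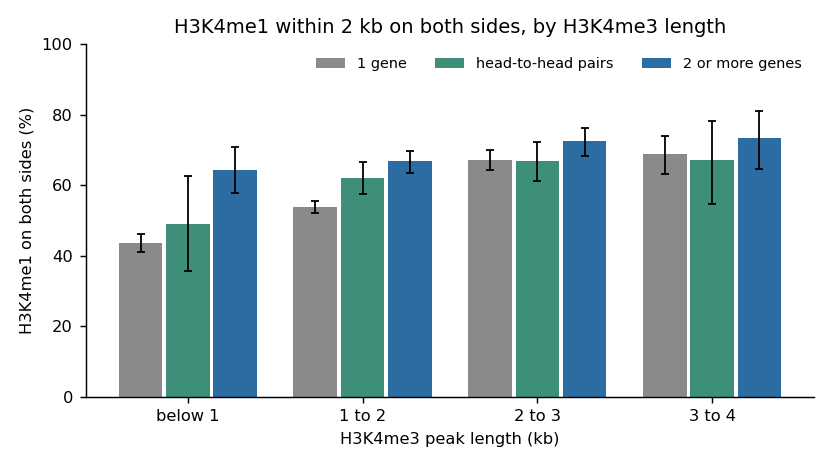
Percentage of H3K4me3 peaks with an H3K4me1 peak within 2 kb on both sides, by H3K4me3 length, for shared, head-to-head and single-gene peaks. Error bars are 95% Clopper-Pearson intervals, which are apart for shared and single-gene peaks below 2 kb and overlap above it.

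The share also depended on what lay on each side. Head-to-head peaks had H3K4me1 on both sides in 63.2% (59.9 to 66.5%) and overlapped it in 43.2%. Peaks at a 3′ end and a start on the same strand had it on both sides in 77.9% (72.3 to 82.8%) and overlapped it in 65.1% (59.0 to 70.9%). At single-gene peaks covering a start, H3K4me1 was present downstream in 80.3% (79.1 to 81.5%) and upstream in 62.2% (60.8 to 63.7%). In the 583 head-to-head pairs, where both sides are downstream of a start, the plus-strand side held it in 79.9% (76.4 to 83.1%) and the minus-strand side in 77.9% (74.3 to 81.2%). Both intervals lay above the upstream value of single-gene peaks and overlapped the downstream value. At 236 same-strand peaks the side downstream of the start held H3K4me1 in 88.6% and the upstream side, toward the preceding gene, in 85.2% (80.0 to 89.4%). Between the 2 starts of a head-to-head pair an H3K4me1 peak was present in 62 of 583 cases (10.6%). Where H3K4me1 stood on 1 side of a pair alone, it was on the side of the longer H3K4me3 arm in 98 of 156 cases (62.8%, 54.7 to 70.4%).

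Individual pairs showed the extremes of these flanks. UBXN11/CD52, with the gene of a glycoprotein on lymphocyte surfaces, had H3K4me1 over all 2000 bp on either side and over its whole 972 bp, at an H3K4me3 pileup of 30.62. S100A6/S100A5 and CALHM2/CALHM1 also had 4000 bp of H3K4me1 in the flanks. No H3K4me1 base lay within 2 kb of MYEF2/CTXN2 (948 bp, pileup 28.72), C22orf23/POLR2F (839 bp, 26.95) or GET1/GET1-SH3BGR (886 bp, 26.89), the last of which pairs a gene with a read-through transcript of it. Such symbols, or provisional LOC symbols, were part of 154 shared peaks.

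Promoter windows of head-to-head genes, from 250 bp before to 50 bp after the start in RefSeq (GRCh38.p14), resembled those of single-gene peaks in base composition. The windows matched 1532 of the 1736 head-to-head genes. Median G or C content was 64.7% in them, 65.7% in genes whose single-gene peak covered the start and 58.0% in genes without a peak, and the observed over expected CpG ratio was 0.871, 0.871 and 0.430. Of 9 motifs searched on both strands, CCGGAAG was present in 29.1% of head-to-head windows (26.8 to 31.5%) and 23.7% of single-gene windows (22.4 to 25.1%), against 14.6% of all windows. Windows of a pair overlap, so the pairs' plus-strand genes were also taken alone, which gave 28.4% (25.2 to 31.7%), an interval that lies just above that of single-gene windows. ATGGCGG, read by YY1, was in 15.6% of head-to-head and 13.1% of single-gene windows (7.94% of all). GCATGCGC was in 8.29% and 6.87% (4.46% of all), and CCAAT in 40.5% and 39.3% (37.1% of all). GGGCGG, which can share letters with ATGGCGG, was in 71.3% and 75% (58.5% of all). TATAAA was rare, with 3.07% and 4.66% against 15.8% of genes without a peak. The E-box CACGTG was in 10.6% and 10.5% (8.95% of all). TCGCGAGA, read by ZBTB33, was in 3.20% and 3.28% (1.79% of all). The cyclic AMP response element TGACGTCA was in 3.26% and 4.08% (2.70% of all).

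DNA repair genes were often at shared peaks. Of 70 listed, 67 had an H3K4me3 peak below 4 kb at an end and 33 were at a shared peak (47.1%, 35.1 to 59.4%), against 17.6% of all protein-coding genes. Genes with any H3K4me3 peak give a closer base, and there the share was 49.3% of repair genes and 36.7% of all genes. In 23 of the 33 the repair gene was part of a head-to-head pair, against 1736 of the 3531 genes at any shared peak. The peak of TP53BP1, which steers the choice of double-strand break repair, and MAP1A had 1327 bp and a pileup of 23.11, with starts 314 bp apart. BRCA1, a homologous recombination gene, shared 2457 bp with NBR1, an autophagy receptor gene, on chr17:43169767-43172223, with a pileup of 21.06, starts 82 bp apart and H3K4me1 on either side (523 and 1349 bp). IL5/RAD50 had 1122 bp and a pileup of 20.65 with no H3K4me1 within 2 kb. The damage recognition genes of nucleotide excision repair were also present, with XPC/LSM3 at 1562 bp and a pileup of 19.25 and DDB1/TKFC at 1644 bp and 18.59.

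DNA replication genes were at shared peaks in 15 of 45 cases (33.3%, 20.0 to 49.0%), against 17.6% of all genes. Of the 15, 11 were head-to-head, against 1736 of the 3531 genes at any shared peak. Among genes with a peak the share was 35.7%, near the 36.7% of all genes. Origin recognition subunits appeared in VPS35/ORC6 (2782 bp, pileup 23.6, starts 481 bp apart) and RARS2/ORC3 (1708 bp, 16.58, starts 148 bp apart). RARS2/ORC3 had no H3K4me1 within 2 kb. Subunits of the MCM helicase appeared in MCM7/AP4M1 (2368 bp, pileup 16.06), where the genes overlap by 603 bp, and PRKDC/MCM4 (3121 bp, 18.57), the former gene of which encodes the DNA-dependent protein kinase. TK1, the cytosolic thymidine kinase, shared 1511 bp with AFMID at a pileup of 15.89, with 2000 bp of H3K4me1 on the TK1 side and 328 bp on the other. Of tRNA synthetase genes, 12 of 37 (32.4%) were at shared peaks, which is 34.3% of those with a peak and also near the 36.7%. KARS1, which charges lysine tRNA, shared 3237 bp with the telomere protein gene TERF2IP (pileup 20.18, starts 108 bp apart). SARS2/MRPS12, both for mitochondrial translation, had 1486 bp and a pileup of 15.21.

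Genes of mitochondrial protein complexes stood above the 17.6% of all genes. Respiratory complex I subunits were at shared peaks in 20 of 37 cases (54.1%, 36.9 to 70.5%) and mitochondrial ribosomal proteins in 37 of 77 (48.1%, 36.5 to 59.7%). Among genes with a peak these shares were 57.1% and 51.4%, against 36.7% of all genes. TSSK6/NDUFA13 had 1424 bp, a pileup of 22.88 and starts 677 bp apart, and NDUFA8/MORN5 had 776 bp, 20.08 and 129 bp. MRPL47/NDUFB5 joined both groups at a pileup of 22.68 over 1704 bp. Cytosolic ribosomal proteins stood at 28 of 86 (32.6%), among them RPL18/SPHK2 (2203 bp, pileup 24.48), RPL4/ZWILCH (2404 bp, 22.64) and RPS25/TRAPPC4 (2302 bp, 20.44). Their starts lay 328, 471 and 423 bp apart, in that order. Among genes with a peak, 34.6% of cytosolic ribosomal protein genes were at a shared one, close to the 36.7% of all genes. Proteasome genes stood at 13 of 48 (27.1%, 15.3 to 41.8%), an interval that includes the 17.6% of all genes. Of proteasome genes with a peak 31.7% were at a shared one, below the 36.7% of all genes. PSMB1 shared 2822 bp (pileup 23.4) with TBP, the TATA-binding protein, and PSMA2 shared 2324 bp (19.27) with MRPL32, with starts 202 bp apart. SIRT3, a mitochondrial deacetylase, and PSMD13 had 2172 bp, 18.13 and starts 45 bp apart.

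Replication-dependent histone genes were at shared peaks in 29 of 69 cases (42.0%, 30.2 to 54.5%) and in 70.7% of those with a peak, and none was in the head-to-head class as counted here. The 29 genes fell in 15 peaks, and in 14 of these at least 2 listed histone genes met. Histone genes are so short that one window can reach both of their ends, and such peaks were counted as both ends of a short gene. H3C2/H2AC4 had 3700 bp and a pileup of 23.63, H2BC11/H2AC11 3075 bp and 17.74, and H2BC4/H2AC6 3935 bp and 16.14. By their nearest ends H2BC11/H2AC11 and H2BC4/H2AC6 were head-to-head, 248 and 246 bp apart. So were H2BC8/H2AC8 and H2AC15/H2BC15, 233 and 194 bp apart, and H2BC3/H3C3 at a larger distance of 1671 bp. In H3C2/H2AC4 the 3′ end of one and the start of the other lay nearest, 993 bp apart. Histone genes have near-identical copies, so reads within them may have been assigned with error.

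Zinc finger genes with a peak were less often at a shared one than all genes with a peak. Of 509 ZNF genes 72.5% had H3K4me3 at an end, against 48.0% of all genes. At a shared peak were 77 (15.1%, 12.1 to 18.5%), an interval that includes the 17.6% of all genes. The 77 are 20.9% of the ZNF genes with a peak, against 36.7% over all genes. In 13 peaks 2 ZNF genes met, as in ZNF490/ZNF791 (1352 bp, pileup 24.86, starts 107 bp apart). ZNF470 shared 1009 bp (24.35) with the divergent ZNF470-DT and had no H3K4me1 within 2 kb. Of 392 olfactory receptor genes 1 had a peak and 0 a shared one (upper limit 0.937%), and of 39 HOX genes 3 were at a shared peak, all in the HOXC peak given above.

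**Figure D5:**
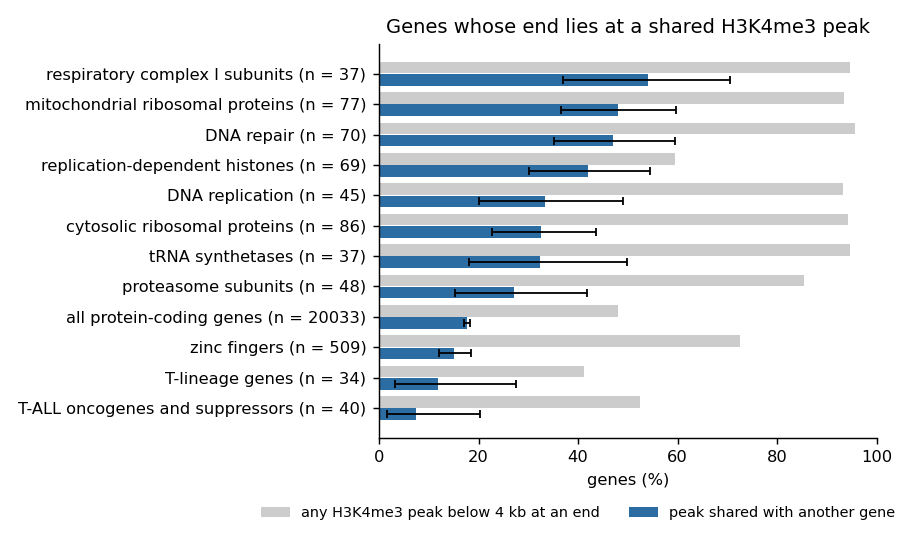
Percentage of genes in each list whose end lay at a shared H3K4me3 peak, in blue with 95% Clopper-Pearson intervals, and at any H3K4me3 peak below 4 kb, in grey. All protein-coding genes stand at 17.6% for shared peaks, and complex I (54.1%), mitochondrial ribosomal (48.1%) and DNA repair genes (47.1%) stand highest.

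The lists of T-cell genes were short, and the intervals of their shares at shared peaks are wide. Of 34 T-lineage genes 14 had a peak at an end and 4 were at a shared peak (11.8%, 3.30 to 27.5%), an interval that includes the 17.6% of all genes. LAT, the linker of T-cell receptor signalling, follows SPNS1 on the same strand in a peak of 2197 bp with a pileup of 19.09, flanked by 1633 and 2000 bp of H3K4me1. RAG1, a subunit of the V(D)J recombinase, paired head-to-head with TRAF6, a ubiquitin ligase of immune signalling, on chr11:36508858-36510599 (1742 bp, 15.26, starts 81 bp apart), with H3K4me1 over 31 bp on one side and none on the other. CD27/TAPBPL had 2171 bp and 10.91, at the 3′ end of CD27 and the start of TAPBPL. CD4/GPR162 had 685 bp and 10.63 and lay wholly under H3K4me1, which also covered 961 and 1290 bp beside it. The orientation of CD4 and GPR162 was not known. CD4 had another peak of 1330 bp that touched no other protein-coding gene end. Of 40 T-ALL oncogenes and suppressors 3 were at a shared peak (7.5%, 1.57 to 20.4%), namely ABL1, RPL5 and STAT5B. That interval also includes the 17.6% of all genes. Among genes with a peak, 28.6% of the 14 T-lineage and 14.3% of the 21 T-ALL genes were at a shared one. The share over all genes with a peak was 36.7%. ABL1 shared its peak only with LOC128092248, a provisional symbol for a short gene on the same strand. The orientation of RPL5, which shared a peak with DIPK1A, was not known. STAT5B and its paralogue STAT5A overlap in 931 bp at their starts under a peak of 1519 bp and pileup 8.16.

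Pairs known for bidirectional promoters were mostly found under 1 peak. Of 17 listed pairs 15 had an H3K4me3 peak that touched both genes, and in 12 it was below 4 kb. The list as first drawn up also named RPA2/THEMIS2, NUP107/SLC35E3 and PSMB8/TAP1, which are not counted among the 17. A peak of 707 bp at RPA2 and another of 1378 bp at NUP107 touched no other protein-coding gene end. ATM/NPAT (4015 bp), HSPD1/HSPE1 (4379 bp) and CARS2/ING1 (5058 bp) exceeded that length. TMEM258/FEN1 had 2214 bp and a pileup of 8.04, and UFD1/CDC45 3473 bp and 16.2. ZAR1L/BRCA2 had 1524 bp and 11.88, with starts that overlap by 286 bp, and the antigen-processing pair TAP1/PSMB9 2902 bp and 11.72. The collagen pair COL4A1/COL4A2 had no H3K4me3 peak, and of the purine synthesis pair PPAT/PAICS only PPAT had one.

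Shared peaks made up the largest fraction on chromosome 11, with 131 of 453 peaks at protein-coding ends (28.9%, 24.8 to 33.3%), followed by chromosome 17 (140 of 506, 27.7%), 16 (106 of 389, 27.2%) and 6 (115 of 436, 26.4%). The lowest fractions were on chromosomes 4 (43 of 284, 15.1%, 11.2 to 19.8%) and 7 (56 of 372, 15.1%, 11.6 to 19.1%), apart from Y with 0 of 7.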

How the data were processed

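The deposited lists hold broad peaks of MACS2 2.1.0.20150731, set against the input library with q of 0.05 for strong and 0.1 for broad regions, per the file headers. The build was GRCh38 (submitters' processing notes). The pileup is a coverage signal, the fold enrichment a ratio over local background, and −log10 of p and q the caller's scores, all deposited by the authors as means over a region. Coordinates were used 1-based, as listed. Gene spans came from RefSeq (GRCh38.p14), so 1 start was used per gene and other promoters were not. Strand was known for 15842 genes (79.1%). It was missing for the named pairs on chromosome 8, such as PRKDC/MCM4 and SFTPC/BMP1. H3K4me1 counted as flanking with any base within 2 kb beyond an edge. Shares carry 95% Clopper-Pearson intervals (scipy 1.17.1, pandas 2.3.3), which cover counting error only, and with 1 library per mark no test was run. Scripts were tested on simulated data. Named peaks were the extremes of pileup, length, start distance and H3K4me1 flanks, those with most genes, those nearest 4 kb, and up to 6 per gene list by pileup, from which the text takes a selection. Members and lists were chosen with earlier results of these data known.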

Additional observations from a re-analysis of the deposited data

How the results depend on the processing

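Of 58 values recomputed under alternatives, 31 stayed within their interval or within 1.5 times the count, and 27 moved beyond it, for which the cause was not tested unless the setting itself removes peaks. With gene-end windows of 0.5 kb, shared peaks were 19.9% of peaks at protein-coding ends, with a median of 1769 bp and at least 2 starts in 83.0%, and with 2 kb windows these were 26.0%, 1632 bp and 67.8%. At −log10 q of at least 10 in both marks, 798 shared peaks were left, with a median of 1769.5 bp, H3K4me1 on both sides of 1.25% and overlap in 2.88%. The upper 50% of each list left 918, with 1757.5 bp, 29.7% and 28.9%, and there single-gene peaks stood at 21.7% for both sides. Below 2 kb, 1158 were left, at 18.9% of peaks, 1430.5 bp and 70.1% with at least 2 starts. Without LOC and read-through symbols the share was 20.5%. Requiring the peak midpoint inside the windows gave 19.2%, with H3K4me1 on both sides of 66.2%, overlap in 47.5% and at least 2 starts in 84.3%. Flanks of 1 and 5 kb gave 65.2% and 72.1% for both sides. H3K4me1 covered 50% of the peak in 7.20% and lay within 1 kb in 91.4%. For H3K4me1 on both sides, shared peaks had the higher value under every one of these settings that changes the peaks, windows or flanks. The differences from single-gene peaks ran from 0.169 to 15.5 points. At −log10 q of at least 10, which gave the 0.169 points, the interval of single-gene peaks (0.733 to 1.54%) lay within that of shared peaks (0.603 to 2.29%). No difference is shown at that setting. No paired analysis was possible because each mark has 1 library.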
